A study of Mus musculus with 8 samples.

Results

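NF-YA peaks at genes of the cytosolic ribosome and of the translation machinery were examined in control and Taf4asKO muscle stem cells (MuSCs). The members were all peaks assigned to a protein-coding gene whose symbol is that of a cytosolic ribosomal protein (*Rps*, *Rpl*, *Rpsa* or *Rplp* symbols) or begins with *Eif* or *Eef* and a digit, without *Eif2ak3*. This gave 28 of 7196 peaks, at 27 genes. Of these, 14 peaks belonged to ribosomal proteins, 5 of the small and 9 of the large subunit. The other 14 belonged to factors, 11 to initiation and 3 to elongation symbols. The factor symbols also cover regulators that are not factors themselves, such as the kinase *Eif2ak1*, the methyltransferase *Eef2kmt* and the eIF4E inhibitor *Eif4ebp3*.

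The study profiled NF-YA, the DNA-binding subunit of NF-Y, by CUT&RUN, in which an antibody directs a nuclease to bound chromatin and the released DNA is sequenced. There were 2 NF-YA libraries per genotype. All mice were on a C57BL/6 background. Taf4asKO mice carried Taf4a flox/flox alleles and a tamoxifen-inducible Pax7 Cre, which limits the deletion to cells that express Pax7. They received tamoxifen. The paper describes its controls as flox/flox littermates with or without the Cre, and a Pax7 ZsGreen reporter could be present in both genotypes. It also lists wild-type C57BL/6 mice. The control libraries are labelled WT, so that their Taf4a alleles are not settled. Both genotypes were analysed as activated, proliferating MuSCs grown in vitro, so that the values do not describe quiescent cells of the muscle. IgG libraries were used by the authors for peak calling and their values were not analysed here. Binding data do not show marker gene expression, so that the cell identity of the cultures was taken from the labels. The labels do not say whether the 2 libraries of a genotype came from separate mice, and the p-values below measure the spread between these libraries.

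Ribosomal proteins assemble with rRNA into the small subunit, which reads the mRNA, and the large subunit, which joins amino acids. Initiation factors bring the initiator tRNA, the mRNA cap and the small subunit together, and elongation factors deliver tRNAs and move the ribosome along the message. NF-Y is a trimer of NF-YA, NF-YB and NF-YC that recognises the CCAAT box, an element found a short distance upstream of the start of many housekeeping genes. Many ribosomal protein genes start within a pyrimidine tract, through which their mRNAs respond to growth signals.

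The sequences around the CCAAT box are shown first because this motif is what NF-Y recognises. For 10 of the strongest member peaks by control mean, 30 bases of GRCm38 (mm10) around the CCAAT nearest the peak centre read as follows, 5′ to 3′ on the strand that reads CCAAT, with CCAAT in capitals. The peak that the deposited table names *Rpl36a* is at ENSMUSG00000049751, which GENCODE M21 names *Rpl36al*, and it is called *Rpl36a* here as in the table.
Rpl13a (chr7:45128869-45128898, plus strand): tttttattttgtCCAATcagaatgtcgcct
Rpl10 (chrX:74270536-74270565, minus strand): tacgtatgattgCCAATattctaagacttg
Rplp0 (chr5:115559368-115559397, plus strand): cagcggtctcagCCAATagacgcgcatgtt
Rpl37 (chr15:5116500-5116529, plus strand): cggtgttgcagcCCAATcggctccctggct
Rpl36a (chr12:69184075-69184104, plus strand): cgggaatgcgaaCCAATaagcagcggcctc
Eef1g (chr19:8966932-8966961, minus strand): ccgcgtcgccgaCCAATcggaagcctgata
Eif4a1 (chr11:69672449-69672478, minus strand): ctttcaaactacCCAATagggcgtccgaac
Eif4g2 (chr7:111083075-111083104, plus strand): ctccttcgctatCCAATcagcagccgggct
Eif3f (chr7:108934312-108934341, plus strand): gaaatttcatgtCCAATagtcatcaagata
Eif1 (chr11:100319850-100319879, plus strand): tccgccccccgaCCAATaggaagccgcagc

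In these 10 windows the base after CCAAT was A in 6 (*Rplp0*, *Rpl10*, *Rpl36a*, *Eif4a1*, *Eif3f* and *Eif1*) and C in 4. The window of *Eif5*, whose control mean of 73.5 was above that of *Rpl36a*, had G and was not printed. Over all 25 member windows examined, which do not include that of *Eif4ebp3*, the base was C in 14, A in 7, G in 4 and T in 0. All windows with A thus belonged to the stronger members. Of the 12 windows of members with a control mean above 65, 7 had A (58.3%), and of the 13 up to 65, 0 had A. The cut of 65 lay between the weakest window with A (*Rpl36a*, 68.5) and the next member window below it (*Rps9*, 63.5, with C). The 0 of 13 was thus fixed by where the cut was put, and the 58.3% depended on it too. Over all peaks with CCAAT in the central 200 bases, A followed in 14.8% of the 1410 above 65 and in 12.8% of the 4236 up to 65, and C was the most frequent base in both. This difference in the members was noticed after the values were seen and was not tested. The pair CA after the box, the most frequent one, was present in 6 of 14 ribosomal protein windows and in 4 of 11 factor windows.

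Many members held a second CCAAT box, which the 30-base windows do not show. The 150 bases upstream of the annotated start are therefore given for 2 ribosomal proteins and 2 initiation factors with a pair of boxes. They were chosen after their values were seen. They are read 5′ to 3′ in the direction of the gene, so that they end just before the start. CCAAT is in capitals, and ATTGG in capitals is a CCAAT box on the other strand.
Rpl13a (chr7:45128762-45128911, minus strand): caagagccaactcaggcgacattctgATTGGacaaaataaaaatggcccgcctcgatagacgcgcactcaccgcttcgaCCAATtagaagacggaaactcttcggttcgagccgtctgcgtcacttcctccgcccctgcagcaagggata
Rplp0 (chr5:115559317-115559466, plus strand): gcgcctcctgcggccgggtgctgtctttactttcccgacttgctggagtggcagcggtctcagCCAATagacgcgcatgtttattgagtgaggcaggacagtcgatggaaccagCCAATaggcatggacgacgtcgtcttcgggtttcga
Eif4a1 (chr11:69672424-69672573, minus strand): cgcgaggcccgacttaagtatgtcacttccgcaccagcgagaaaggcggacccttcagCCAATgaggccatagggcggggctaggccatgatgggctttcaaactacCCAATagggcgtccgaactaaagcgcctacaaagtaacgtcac
Eif3f (chr7:108934267-108934416, plus strand): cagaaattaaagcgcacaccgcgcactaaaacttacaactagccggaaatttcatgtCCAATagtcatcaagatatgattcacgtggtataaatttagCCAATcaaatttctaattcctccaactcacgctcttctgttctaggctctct

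In *Rpl13a* the boxes lay on opposite strands and began 53 bases apart. In *Rplp0*, *Eif4a1* and *Eif3f* both boxes read in the direction of the gene, 51, 49 and 41 bases apart. All 150 bases of each stretch lay inside the peak.

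CCAAT was present in the central 200 bases of all 14 ribosomal protein peaks (100%, 95% Wilson interval 78.5 to 100%) and of 12 of 14 factor peaks (85.7%, 60.1 to 96.0%). The same window held CCAAT in 78.5% of all 7196 peaks and in 83.0% of the 3837 peaks of protein-coding genes. Among the 2586 coding peaks centred within 1000 bases of their start the share was 88.2%. The intervals of both families include this last share, and no difference between families was detectable with 14 peaks each. The family shares also count members away from a start, so that they are not a like comparison with it. All 21 members at a start held CCAAT, 10 with 1 box and 11 with 2, and whether this differs from 88.2% was not tested. The 2 members without CCAAT were the peak at *Eif3k*, which encodes a subunit of the eIF3 scaffold, and the distal peak of *Eif2b2*, which encodes a subunit of the exchange factor eIF2B. Both were weak, with control means of 2.5 and 5.0 normalised reads, and both lay far from the assigned start.

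Pairs of boxes were found in 8 of 14 ribosomal protein peaks and 5 of 14 factor peaks. Their spacing ranged from 13 bases in *Rpl13* to 66 bases in *Rpl23a*, with a median of 41. In *Rpl23a* 1 of the boxes lay in the central 200 bases but outside the called peak. In 10 of these 13 pairs both boxes had the same orientation, and the exceptions were *Rpl13a*, *Rpl23a* and *Rps26*. Among the 21 members at a start, the 11 with a pair had a median control mean of 73.5 normalised reads (range 11 to 201), and the 10 with 1 box had 53.2 (range 13.5 to 168.5). The ranges overlapped almost completely.

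Most peaks sat close upstream of the gene start. Of the ribosomal protein peaks 12 of 14 were centred within 1000 bases of the assigned start (85.7%, 95% Wilson interval 60.1 to 96.0%), and of the factor peaks 9 of 14 (64.3%, 38.8 to 83.7%). Among all peaks of protein-coding genes the share was 67.4%. All 9 large subunit peaks were at a start. The median distance to the start was 102 bases for ribosomal proteins and 70.5 bases for factors, against 209 bases for all coding peaks. The centre was upstream of the start in 9 of the 12 ribosomal protein peaks and in 8 of the 9 factor peaks at a start.

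CCAAT boxes at the starts lay in a narrow range. The 13 boxes of the factors ran from position -94 to 124 relative to the start, and 11 of them were between 150 and 20 bases upstream. The 19 boxes of the ribosomal proteins ran from -261 to 53, and 11 of them were between 150 and 20 bases upstream. *Eif5*, whose product activates GTP hydrolysis on the initiator complex, was the only factor with its boxes downstream of the start, at 92 and 124 bases. In *Rpl13* both boxes were also downstream, at 7 and 20 bases, and in *Rpsa*, the laminin receptor protein of the small subunit, the only box was 53 bases downstream. One box of *Rpl23a* was 14 bases downstream. In *Rpl10*, on the X chromosome, the box was the most distant of the ribosomal proteins at a start, at -261, within a peak of 631 bases. In 9 of 13 factor boxes and 9 of 19 ribosomal protein boxes the motif read in the direction of the gene.

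**Figure D1:**
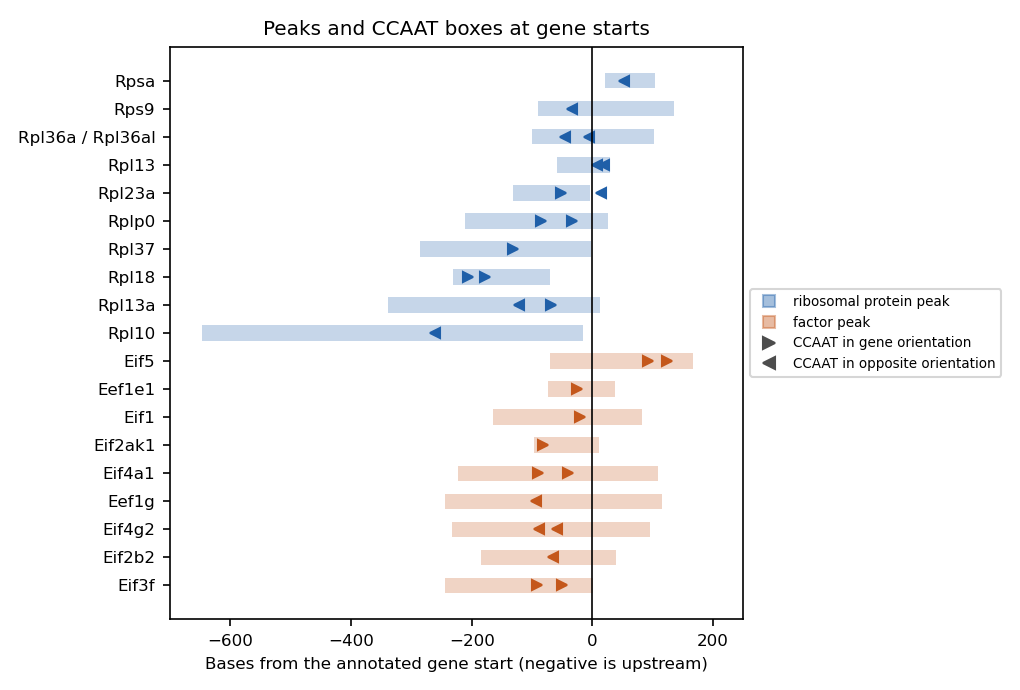
Positions of 19 member peaks centred within 1000 bases of their assigned start, in bases from the start (negative is upstream), with shaded bars for the peak and arrowheads for each CCAAT box in its central 200 bases, pointing right where it reads in the direction of the gene. Most boxes lie left of the start line, and those of Eif5, Rpl13 and Rpsa and 1 of the 2 boxes of Rpl23a lie right of it. The central window of a short peak can reach past the bar, as in Rpl23a.

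The remaining 7 members were not at their assigned start. *Rps21* had its peak centred 1431 bases upstream, with CCAAT. The *Rps26* peak lay 1281 bases downstream in an exon. Whether processed copies of the gene affect the placing of its reads was not tested, and its value is uncertain. The peak of *Eif4e*, the cap-binding protein, was 1028 bases downstream in the UTR of its gene. That of *Eef2kmt*, which methylates the elongation factor eEF2, was 1448 bases downstream in an intron. The *Eif4ebp3* peak lay 7339 bases upstream of the assigned start, inside a coding exon of the neighbouring *Ankhd1*, so that its assignment rests on distance alone. The peaks of *Eif3k* and the distal *Eif2b2* peak lay 9705 and 7977 bases downstream. At the starts, 1 member shared the region with another coding gene, since *Mgat2* begins 75 bases from *Rpl36al* on the other strand. Its peak cannot be given to either gene alone.

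Only a minority of each family had a peak. GENCODE M21 holds 83 protein-coding ribosomal protein genes that fit the symbols, and 13 of them had at least 1 peak (15.7%, 95% Wilson interval 9.39 to 25%). *Rpl36al* is not among the 83 under its GENCODE symbol. Of 67 factor genes 13 had a peak (19.4%, 11.7 to 30.4%). Over all 21938 protein-coding genes the share was 14.6%. The intervals of both families include this value and overlap each other.

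Within each family the peaks at a start fell mostly on genes with CCAAT in the promoter, counted from 250 bases before to 50 bases after the annotated start. CCAAT was present on either strand in 25 of 83 ribosomal protein promoters (30.1%) and 20 of 67 factor promoters (29.9%), against 39.0% of all coding promoters. A peak within 1000 bases of the start was found at 10 of the 25 ribosomal protein genes with CCAAT (40.0%, 95% Wilson interval 23.4 to 59.3%) and at 1 of the 58 without (1.72%, 0.305 to 9.14%). For factors it was found at 8 of 20 with CCAAT (40.0%, 21.9 to 61.3%) and 1 of 47 without (2.13%, 0.377 to 11.1%). Over all coding genes the shares were 22.7% with CCAAT and 3.11% without. The members without CCAAT in the promoter window and with a peak at the start were *Rpsa* and *Eif5*, whose boxes lay beyond the downstream end of the window.

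CCAAT was also present in promoters with no peak. Among ribosomal proteins these included *Rpl10a*, *Rpl14*, *Rpl15*, *Rpl24*, *Rps2*, *Rps23* and both *Rplp1* and *Rplp2*, which form the acidic stalk of the large subunit together with *Rplp0*. Of the stalk genes, *Rplp0* alone had a peak. Among factors they included *Eif4g1*, the main scaffold of the cap-binding complex, while its relative *Eif4g2* had a strong peak, and *Eif2b4* and *Eif2b5*, while *Eif2b2* of the same complex had a peak. A gene without a peak here is one to which none was assigned. A peak at its start may have been assigned to a neighbouring gene, so that NF-YA was not shown to be absent.

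**Figure D2:**
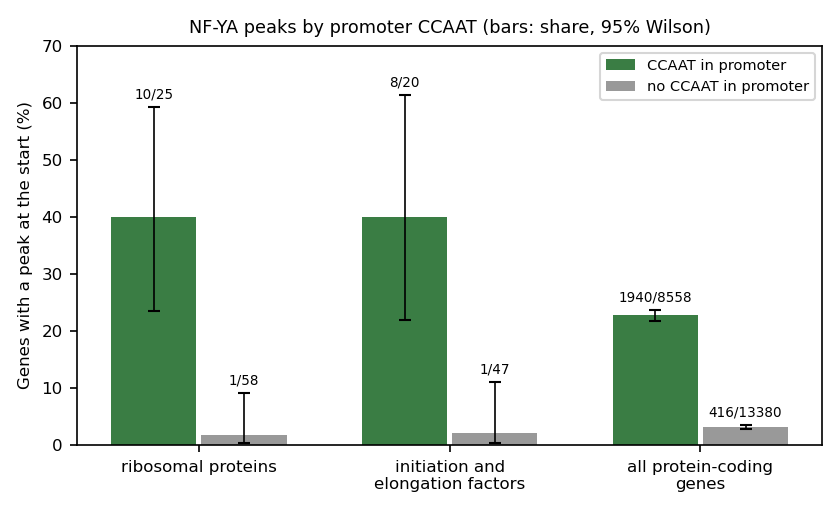
Share of genes with an NF-YA peak within 1000 bases of the start (vertical axis, %) for ribosomal proteins, factors and all protein-coding genes, with CCAAT in the promoter (green) and without (grey). Bars are shares, whiskers are 95% Wilson intervals and the fractions give genes with a peak over all genes. In both families 40.0% of the genes with CCAAT had a peak.

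The values were the authors' normalised reads per peak, rounded to whole numbers. Reads in peaks differed between libraries, with 351696 and 111265 in control replicates 1 and 2 and 734552 and 505241 in Taf4asKO replicates 1 and 2, as estimated from the gaps between values. The 2 lower numbers were those of the controls, and the number of reads cannot be told apart from genotype. A value of 100 rested on far fewer reads in control replicate 2, where 1 read was worth 3.26, than in Taf4asKO replicate 1, where 1 read was worth 0.432.

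Both families had middle to high signal. The median control mean was 55.8 normalised reads over the 14 ribosomal protein peaks (quartiles 17.2 and 85.6) and 58.2 over the 14 factor peaks (quartiles 26.2 and 114). The median over all peaks was 17, and over peaks of protein-coding genes it was 33.5. Among coding peaks within 1000 bases of the start, which is where most members lay, it was 54.8, with quartiles of 20.0 and 120, close to both family medians. The large subunit peaks had a median of 69.5 and the small subunit peaks one of 17, and *Rps9* was the only small subunit peak above 20. With 5 small subunit peaks this was not tested. The strongest member, *Rpl13a*, ranked 383 of all 7196 peaks by control mean, well below the highest coding peak, at 1346.5.

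**Figure D3:**
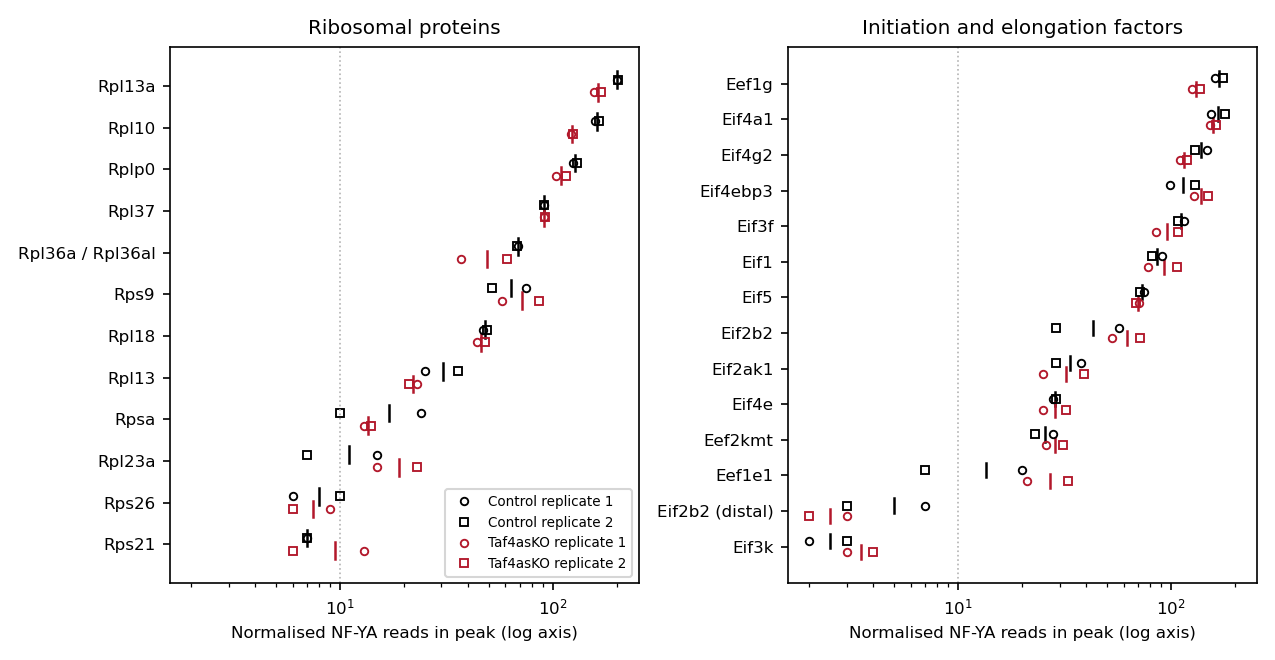
Normalised NF-YA reads (log axis) of 26 member peaks in the 4 libraries, ordered by control mean, with ribosomal proteins on the left and factors on the right. Circles and squares are replicates 1 and 2, black is control, red is Taf4asKO, short bars are genotype means, and the dotted line marks the value of 10 at which the mean over libraries had to lie for the test. Values run from 2 to 202, and the genotypes lie close together in most rows.

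Among ribosomal proteins, the strongest peaks were those of the large subunit proteins *Rpl13a* and *Rpl10* and of the stalk protein *Rplp0*. *Rpl13a* had 200 and 202 normalised reads in the control libraries and 157 and 169 in the Taf4asKO libraries. Its group means were 201.0 ± 1.41 and 163.0 ± 8.49 (SD, n = 2 each), and both Taf4asKO values were below both control values. *Rpl10* had 159 and 166 in control and 122 and 125 in Taf4asKO MuSCs, again without overlap. *Rplp0* had 125 and 130 in control and 104 and 116 in Taf4asKO MuSCs, so that the Taf4asKO values were the lower ones here too. The order of these peaks depended on peak width. Per 100 bases of peak, the control means were 57.3 for *Rpl13a*, 53.8 for *Rplp0* and 25.8 for the much wider *Rpl10* peak.

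The peaks of middle signal showed no common pattern. *Rpl37* had 91 in both control libraries and 91 and 92 in the Taf4asKO libraries, the closest agreement of all members. *Rps9* had 75 and 52 in control and 58 and 86 in Taf4asKO MuSCs, and the replicates of a genotype differed by more than the genotype means. *Rpl36a* had 69 and 68 in control and 37 and 61 in Taf4asKO MuSCs. Both Taf4asKO values were lower but far from each other, with means of 68.5 ± 0.707 and 49 ± 17 (SD, n = 2 each). *Rpl18* had 47 and 49 against 44 and 48, and the genotypes overlapped.

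The weaker ribosomal protein peaks rested on few reads in control replicate 2. *Rpl13* had 25 and 36 in control and 23 and 21 in Taf4asKO MuSCs. *Rpl23a* had 15 and 7 against 15 and 23, where the value of 7 in control replicate 2 stood for about 2 reads. *Rpsa* had 24 and 10 in control and 13 and 14 in Taf4asKO MuSCs. *Rps26* and *Rps21* had values between 6 and 13 in all libraries and were below the minimum for the test.

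Among factors, the strongest peaks were at *Eef1g*, a subunit of the exchange factor of eEF1A, and *Eif4a1*, the helicase that unwinds mRNA leaders. *Eef1g* had 161 and 176 normalised reads in control and 126 and 137 in Taf4asKO MuSCs, with means of 168.5 ± 10.6 and 131.5 ± 7.78 (SD, n = 2 each) and no overlap. *Eif4a1* had 155 and 179 in control and 153 and 163 in Taf4asKO MuSCs, and the genotypes overlapped. *Eif4g2*, an eIF4G relative that works without the cap-binding protein, had 148 and 130 against 111 and 119, without overlap.

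*Eif4ebp3* differed from the other strong members in having the higher values in Taf4asKO MuSCs. Its peak had 99 and 130 in control and 129 and 149 in Taf4asKO MuSCs, which overlapped by 1 normalised read. *Eif3f*, a core subunit of eIF3, had 115 and 108 against 85 and 108, and *Eif1*, which helps to select the start codon, had 91 and 82 against 78 and 107. Neither showed a separation of the genotypes. *Eif5* had 75 and 72 in control and 71 and 69 in Taf4asKO MuSCs, a small difference without overlap. Per 100 bases of peak, the control means of the strongest factors were 50.5 for *Eif4a1*, 46.9 for *Eef1g*, 45.5 for *Eif3f* and 42.4 for *Eif4g2*, and 23.0 for *Eif4ebp3*.

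The proximal *Eif2b2* peak had 57 and 29 in control and 53 and 72 in Taf4asKO MuSCs, and the distal one 7 and 3 against 3 and 2. The 2 peaks of this gene thus differed by far in signal, and the distal one was too low for the test. *Eef1e1*, which encodes a scaffold protein of the tRNA synthetase complex, had 20 and 7 in control and 21 and 33 in Taf4asKO MuSCs. Both Taf4asKO values were above both control values, but the control values differed widely, and the 7 in control replicate 2 stood for about 2 reads. *Eif2ak1*, *Eif4e* and *Eef2kmt* had values between 23 and 39 in all libraries, and the genotypes overlapped in each. *Eif3k* had 2 to 4 in all libraries and was not tested.

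To ask whether NF-YA signal at these genes depended on TAF4A, the genotypes were compared with limma on log2(value + 1) over the 4746 peaks whose mean reached 10. These included 24 of the 28 members, 12 in each family. At an adjusted p of 0.05, 0 of 24 members were called, against 45 of all tested peaks, or 0.948%. At an unadjusted p of 0.05, 3 of 24 members passed, *Rpl10*, *Eef1g* and *Eef1e1*, against 17.9% of all tested peaks. The lowest adjusted p of a member was 0.221, at *Rpl10*. With so few calls among all peaks and 2 libraries per genotype, the test does not show that the members were the same in both genotypes. A fold rule, with a mean above 10 and a ratio of group means above 2, gave 0 of 24 members gained and 0 lost. Over all 4689 peaks above the mean it gave 4.29% gained and 3.13% lost. *Eef1e1* stood at the edge of the rule, with group means of 13.5 and 27.

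The largest decreases among ribosomal proteins on the log2(value + 1) scale were -0.52 ± 0.26 (SE) at *Rpl36a*, -0.43 ± 0.30 at *Rpl13* and -0.39 ± 0.15 at *Rpl10*, with limma adjusted p-values of 0.317, 0.462 and 0.221. The strongest peak, *Rpl13a*, had -0.30 ± 0.14 and an adjusted p of 0.299 in the same fit. Among the larger increases were 0.79 ± 0.46 at *Rpl23a* and 0.17 ± 0.26 at *Rps9*, with limma adjusted p-values of 0.376 and 0.743. The *Rps9* value fell to -0.09 without control replicate 2 and to -0.11 without Taf4asKO replicate 2. That of *Rpl23a* was 0.29 without control replicate 2 and 1.29 without control replicate 1, and that of *Rpl36a* ranged from -0.87 without Taf4asKO replicate 2 to -0.16 without Taf4asKO replicate 1. *Rpl13* had -0.69 without control replicate 1 and -0.18 without control replicate 2. *Rpl37* had 0.0078 ± 0.17, the smallest difference of all members.

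The largest decreases among factors were -0.36 ± 0.15 (SE) at *Eef1g*, -0.27 ± 0.16 at *Eif4g2* and -0.22 ± 0.18 at *Eif3f*, with limma adjusted p-values of 0.269, 0.403 and 0.550. The largest increases were 1.08 ± 0.48 at *Eef1e1*, 0.59 ± 0.32 at *Eif2b2* and 0.29 ± 0.19 at *Eif4ebp3*, with limma adjusted p-values of 0.275, 0.350 and 0.433. Without control replicate 2, *Eef1e1* had 0.38 and *Eif2b2* had 0.11, against 1.77 and 1.07 without control replicate 1. *Eif3f* had -0.39 without Taf4asKO replicate 2 and -0.04 without Taf4asKO replicate 1. *Eif4ebp3* had 0.48 without control replicate 2 and 0.09 without control replicate 1. These fits compare 1 library of a genotype with 2 of the other and called 0 of all tested peaks, so that they show the range of the differences and not their significance.

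The genotypes were separate, with both Taf4asKO values below both control values, in 8 of 24 tested members, against 28.6% of all tested peaks. These were *Rpl13a*, *Rpl10*, *Rplp0*, *Rpl36a* and *Rpl13*, and the factors *Eef1g*, *Eif4g2* and *Eif5*. Both Taf4asKO values were above both control values in 2 members, *Eef1e1* and a ribosomal protein, against 19.3% of all tested peaks. The remaining 14 overlapped, 6 ribosomal proteins and 8 factors. The lower values were seen in 5 of 12 ribosomal proteins and 3 of 12 factors, and over both families the share was near the background.

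The median log2 difference was -0.13 over the 12 tested ribosomal protein peaks and -0.04 over the 12 tested factor peaks, against -0.04 over all tested peaks, and with libraries scaled to equal totals these medians turned to 0.01, 0.10 and 0.10. Relative to all tested peaks, the ribosomal protein median was -0.08 as deposited and -0.02 without control replicate 1. The factor median was 0.0050 relative to all tested peaks, 0.19 without Taf4asKO replicate 1 and 0.10 without control replicate 2. In the deposited scaling, the 971 peaks whose mean reached 100 had a median difference of -0.22 and 84.7% were negative, which became -0.08 and 67.1% with equal totals and -0.01 and 53% when centred on these same peaks. The 8 members in this range had a median of -0.24 as deposited, -0.10 with equal totals and -0.03 when centred. Of these 8, 7 were negative as deposited, with *Eif4ebp3* as the exception, and 6 under both other scalings. The 14 members with a mean from 20 to 100 had a median of 0.04, against 0.0056 over all 2358 peaks in this range.

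**Figure D4:**
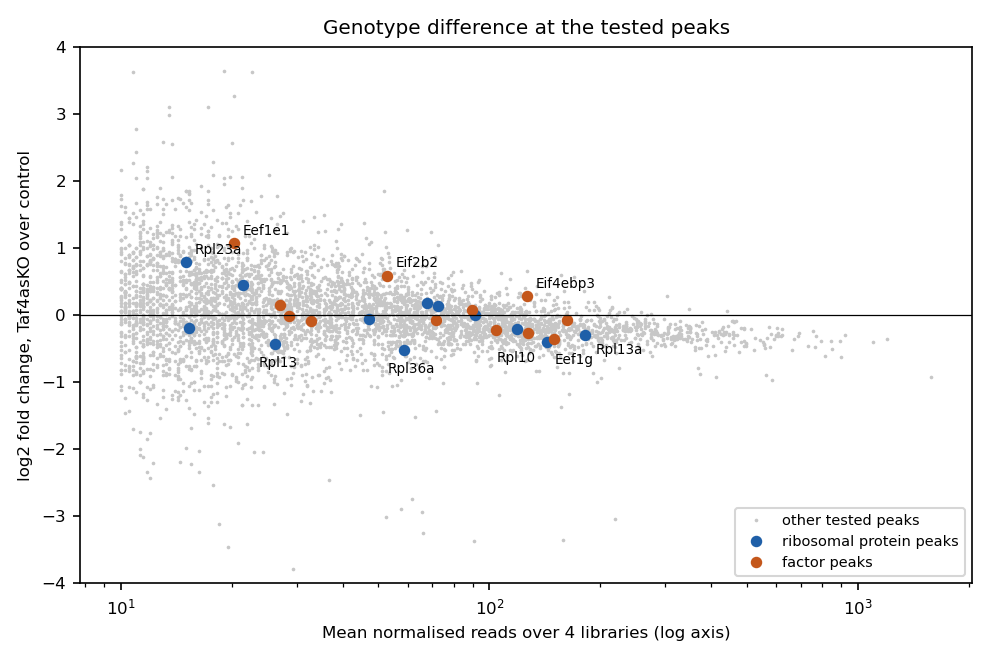
Difference between genotypes (log2 of Taf4asKO over control, limma) against the mean normalised reads over the 4 libraries (log axis) for all 4746 tested peaks in grey, with the 12 ribosomal protein peaks in blue and the 12 factor peaks in orange. Members with larger differences are named where space allows. The members lie within the grey cloud at every mean, and 7 of the 8 members with a mean of at least 100 lie under 0 in the deposited scaling, against 6 when centred on strong peaks.

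Translation genes outside the chosen symbols were described by 5 lists. Of 70 listed genes 17 had a peak (24.3%), against 14.6% of all coding genes, with 18 peaks in all, and 15 of these held CCAAT in the central 200 bases. Of the 14 tested peaks, 0 were called by limma in either direction, against 0.948% of all tested peaks, a share at which few calls would fall on so short a list. This count includes *Rpl36al*, which is also a member. Among 20 cytosolic tRNA synthetases, which load amino acids onto tRNAs, 7 had a peak. The lowest adjusted p of the lists was there, at *Iars*, with 161 and 170 normalised reads in control and 110 and 104 in Taf4asKO MuSCs, a difference of -0.62 ± 0.16 (SE) and a limma adjusted p of 0.0979. Among 28 genes of ribosome assembly and rRNA synthesis 6 had a peak, and the median difference of the 5 tested peaks was 0.29, with nucleolin (*Ncl*) the strongest at 98 and 117 against 82 and 107.

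Of 8 genes of growth signalling to the ribosome, *Mtor*, the kinase that controls translation in response to nutrients, had the strongest peak of all lists. It had 319 and 241 normalised reads in control and 228 and 269 in Taf4asKO MuSCs, which overlapped. *Myc* had 8 and 0 against 7 and 8 and was not tested. Of 10 genes of termination, recycling and poly(A) binding, only *Etf1*, the release factor that reads stop codons, had a peak, with 163 and 192 against 128 and 135. Its values did not overlap between genotypes, and its difference of -0.43 did not pass the test, with a limma adjusted p of 0.207.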

How the data were processed

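NF-YA CUT&RUN was analysed in 4 libraries, 2 per genotype, of 8 libraries in 4 groups. The authors trimmed reads with Trimmomatic, aligned them to mm10 with STAR, removed duplicates (Picard) and reads with several matches, called peaks against IgG with MACS, merged them, counted reads with featureCounts and normalised with DESeq2. The deposited values are such a score per peak, rounded to whole numbers, and peaks are assigned to the nearest gene start where 1 lay within about 10000 bases. The sources differ in the versions of these tools, which are not given here. Removal of reads with several matches can lower values at genes with near-identical copies.

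The value of 1 read was estimated from the gaps between the values of each library and gave the reads in peaks (the search found 4 of 4 simulated libraries). In Taf4asKO libraries a read adds under 1 to the value, so whole reads could not be recovered and no count model was run. The median peak held 16.3, 4.91, 41.7 and 26.4 reads in control replicates 1 and 2 and Taf4asKO replicates 1 and 2. The genotype test was limma 3.58.1 (R 4.3.3), fitted to log2(value + 1) with a trended variance over peaks whose mean reached 10, with Benjamini-Hochberg adjustment over all tested peaks at 0.05. Such differences understate the change of low peaks. On simulated data, 159 of 200 peaks changed by 2 on the log2 scale were called in the right direction among 4718 tested, and 0 unchanged peaks.

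Positions and CCAAT were read from GENCODE M21 and the GRCm38 genome, where 27 of 27 member genes had the deposited coordinates. CCAAT was searched on both strands, and the base after it is that of the box nearest the centre. Wilson intervals cover counting of peaks or genes, not the reads within them. The members, gene lists and named peaks were chosen with earlier results of these data known. Named with differences were the 6 highest peaks of each family by control mean, the 3 largest increases and decreases of each, members past a threshold, and genes with several peaks. For 2 members the individual values are not reported here, and they enter only the counts and medians. Alternatives were other scalings, pseudocount, minimum, weights, windows, a block for the replicate number and leaving out each library. Python 3.11.15, pandas 2.3.3, statsmodels 0.14.6 and pysam 0.24.0 were used.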

Additional observations from a re-analysis of the deposited data

How the results depend on the processing

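The count of called members was 0 under each alternative run (other scalings, no minimum, a pseudocount of 5, weights from reads and leaving out each library). At an unadjusted p under 0.05 there were 5 of 24 members at equal medians (21.1% of all tested peaks), 3 with equal totals (19%), 2 with weights (20.5%), 1 with the replicate block (15.8%), 3 and 1 without control replicates 1 and 2 (22.9% and 18.7%) and 0 and 1 without Taf4asKO replicates 1 and 2 (4.78% and 7.33%). The calls among all peaks moved more, from 45 to 129 at equal medians, 195 with weights, and 0 with no minimum or without any 1 library, where no call of a member was to be had. In the latter fits a genotype with 1 library is assumed to vary like the other. The lowest adjusted p of a member in limma was 0.129, at equal medians. With the replicate block 0 members were called as well, 31 of all tested peaks against 45 without it, and the lowest adjusted p was 0.286. The replicate numbers pair nothing by the labels, and the 2 same-numbered pairs deviated together with r = -0.088 over tested peaks and 0.256 over those whose mean reached 100. In this balanced layout the block leaves each difference as it was, so that no direction could change.

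Of the 16 tested peaks with named differences, 12 kept their direction under each alternative and 4 did not. With equal totals *Eif4a1* had 0.07, and centred on peaks whose mean reached 100 it had 0.13. The same centring took decreases close to 0, with -0.0034 at *Rplp0*, -0.0065 at *Eif3f*, -0.06 at *Eif4g2*, -0.09 at *Rpl13a* and -0.15 at *Eef1g*. With equal medians *Rpl37* had -0.01. With weights from reads *Eif1* had -0.0078 and *Rps9* -0.02. Over the fits without a library *Eif1* ranged from -0.15 to 0.31, *Eif4a1* from -0.18 to 0.03 and *Rps9* from -0.11 to 0.46. The factor median was 0.10 with equal totals, 0.17 when centred on strong peaks and -0.13 to 0.19 without a library, the highest without Taf4asKO replicate 1. The ribosomal protein median was -0.18 to -0.04 without a library, and 0.07 when centred on strong peaks, where all tested peaks had 0.16.

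The fold rule gave 2 members (*Rpl23a* and *Eef1e1*) at a ratio of 1.5, 1 (*Eef1e1*) with equal totals, and 0 to 3 without a library, with 3 (also *Eif2b2*) without control replicate 1 and 2 without Taf4asKO replicate 1. All were gains, and the same settings gave gains at 11.7%, 6.83%, 8.47% and 4.73% of all peaks above the mean. Family medians of the control signal over that of all coding peaks were 1.66 for ribosomal proteins and 1.74 for factors, 1.57 and 1.52 when divided by width, and 1.53 to 1.61 and 1.53 to 1.83 without a control library. Shares of CCAAT, starts and genes with a peak stayed within their Wilson intervals. Few reads in control replicate 2 limit the weak peaks, where 2 or 3 reads stand behind a value. The cause of these shifts was not tested.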
